A study of Mus musculus with 8 samples.

Results

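The genes described here are 10 components of the unfolded protein response of the endoplasmic reticulum (ER). They are the ER-lumen chaperones Hspa5, Hsp90b1 and Calr, the protein disulfide isomerases Pdia4 and Pdia6, the transcription factors Xbp1, Atf4 and Ddit3, the degradation factor Herpud1 and the secreted stress protein Manf. They were taken by exact match of the gene name in the deposited expression table, which lists 21959 genes. The match returned 11 rows, because Ddit3 is listed under a second identifier (ENSMUSG00000116429, 105 bases long, inside the span of the main Ddit3 gene) with 0 counts in all 8 libraries. That row was set aside, and all 10 genes passed the filter on low counts.

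Polyadenylated RNA labelled as from brain was sequenced in 8 libraries of wild-type mice. The Model group (n = 4) is labelled as treated with PCPA, para-chlorophenylalanine, which blocks tryptophan hydroxylase and so lowers serotonin and disturbs sleep. The IsoL group (n = 4) is labelled as treated with isoliensinine, a plant alkaloid studied here for its effect on sleep. According to the series' design text the animals were female ICR mice, dosing lasted 7 days, pentobarbital followed the last dose by 40 minutes, and the hypothalamus was dissected. That text lists isoliensinine at 12.5, 25 and 50 mg/kg. Which of these doses was sequenced, whether the IsoL mice also received PCPA, whether the sequenced mice had received pentobarbital, and the age of the mice are not stated in the labels or the design text. Untreated mice were not analysed here, so each difference compares IsoL with Model. Nothing says that the 4 libraries of each group are 4 different mice, so p-values measure the spread between these libraries only, which may be technical.

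Proteins that enter the secretory pathway fold in the ER with the help of lumenal chaperones and of enzymes that form disulfide bonds. When unfolded proteins accumulate, the ER membrane sensors IRE1 (Ern1), PERK (Eif2ak3) and ATF6 are activated. IRE1 splices the Xbp1 mRNA, PERK slows translation while favouring that of ATF4, and ATF6 is cut in the Golgi to release a transcription factor. These factors raise the transcription of chaperones, of degradation factors and, under lasting stress, of Ddit3 (CHOP), which promotes cell death. In the hypothalamus, neurons that secrete peptide hormones carry a large load of such proteins. Counts per gene do not distinguish spliced from unspliced Xbp1 mRNA, and the activation of ATF4 by translation is not visible in mRNA levels.

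The sequences that define this response are ER stress response elements (ERSE) in promoters, where ATF6 and XBP1 bind together with the CCAAT-binding factor NF-Y. RefSeq promoters of build GRCm38.p6, reaching from 250 bases before to 50 after the transcription start, were matched by symbol for 9 of the 10 genes, all but Manf. The exact ERSE, CCAAT and CCACG with any 9 bases between them, was searched on both strands and was found in 4 of these 9 promoters (Hspa5, Hsp90b1, Calr and Pdia6), against 0.119% of all 32851 promoters of that length in the table. Hsp90b1 held 2 copies. The related ERSE-II, ATTGG and CCACG with any 1 base between them, was found in Herpud1 alone among the 9, against 0.0365% of all promoters. These shares were not tested and are description only, since the 10 genes were listed as parts of this response. The 5 promoters are shown because they carry these elements, with exact matches to ERSE, to ERSE-II or to the UPRE core TGACGTG in capitals. They lie at chr2:34771840-34772139 (plus strand), chr10:86705395-86705694 (minus strand), chr8:84846882-84847181 (minus strand), chr12:17266339-17266638 (plus strand) and chr8:94386179-94386478 (plus strand), and each is written 5′ to 3′ on the strand of its gene.
Hspa5: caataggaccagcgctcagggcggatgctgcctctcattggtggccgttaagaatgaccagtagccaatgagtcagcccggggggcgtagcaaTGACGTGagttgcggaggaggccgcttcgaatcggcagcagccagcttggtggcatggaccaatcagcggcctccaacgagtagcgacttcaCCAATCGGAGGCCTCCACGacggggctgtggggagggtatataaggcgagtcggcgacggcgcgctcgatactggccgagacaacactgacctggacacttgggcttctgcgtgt
Hsp90b1: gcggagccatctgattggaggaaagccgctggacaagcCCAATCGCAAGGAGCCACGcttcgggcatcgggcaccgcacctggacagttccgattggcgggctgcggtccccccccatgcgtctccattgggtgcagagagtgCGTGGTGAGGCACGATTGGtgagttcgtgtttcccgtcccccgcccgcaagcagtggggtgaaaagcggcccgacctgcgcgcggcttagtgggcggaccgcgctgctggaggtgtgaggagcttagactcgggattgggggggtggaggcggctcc
Calr: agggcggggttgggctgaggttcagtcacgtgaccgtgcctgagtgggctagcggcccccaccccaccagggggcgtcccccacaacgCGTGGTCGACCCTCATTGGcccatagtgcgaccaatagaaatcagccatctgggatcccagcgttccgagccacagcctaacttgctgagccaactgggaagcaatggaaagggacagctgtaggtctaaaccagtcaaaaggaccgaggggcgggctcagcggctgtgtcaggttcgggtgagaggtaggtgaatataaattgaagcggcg
Pdia6: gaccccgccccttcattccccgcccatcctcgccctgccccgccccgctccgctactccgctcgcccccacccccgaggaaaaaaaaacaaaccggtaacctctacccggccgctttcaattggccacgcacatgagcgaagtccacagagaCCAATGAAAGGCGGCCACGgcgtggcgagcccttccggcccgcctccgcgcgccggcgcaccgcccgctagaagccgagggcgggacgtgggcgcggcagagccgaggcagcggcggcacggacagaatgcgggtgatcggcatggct
Herpud1: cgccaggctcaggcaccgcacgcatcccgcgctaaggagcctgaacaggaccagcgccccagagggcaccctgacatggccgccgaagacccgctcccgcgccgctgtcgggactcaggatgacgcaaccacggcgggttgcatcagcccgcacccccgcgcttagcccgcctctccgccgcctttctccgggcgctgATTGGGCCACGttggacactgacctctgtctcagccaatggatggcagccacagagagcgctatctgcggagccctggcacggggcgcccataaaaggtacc

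In the Hspa5 promoter the exact ERSE lay 65 to 47 bases before the start, and the UPRE core lay 157 to 151 bases before it. The UPRE core occurred in no other of the 9 promoters, against 2.01% of all. The amino acid response core TGATGCAA, part of sites bound by ATF4, was found in Herpud1, on the minus strand 112 to 105 bases before the start, against 0.895% of all promoters. Its variant TGATGAAA was found in none of the 9, against 1.02%. The CCAAT box alone, which is contained in ERSE, was found in 8 of the 9 promoters (all but Xbp1), against 37.4% of all. With up to 1 mismatch in the CCACG part, a search chosen after the sequences were seen, ERSE was also found in Pdia4, Ddit3 and Herpud1, giving 7 of 9 against 0.998% of all promoters. No exact ERSE, ERSE-II, UPRE or amino acid response core was found in the windows of Pdia4, Xbp1, Atf4 and Ddit3.

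**Figure D1:**
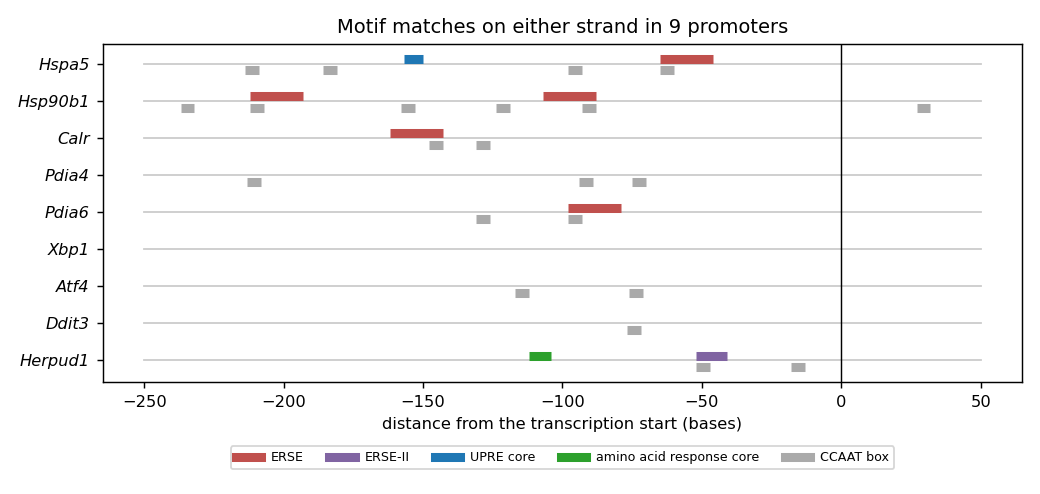
Positions of motif matches on either strand in 9 promoters, with the distance from the transcription start in bases on the horizontal axis and 1 line per gene. ERSE (red) is present in Hspa5, Hsp90b1, Calr and Pdia6, with 2 copies in Hsp90b1, and ERSE-II (purple) in Herpud1.

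Summed gene counts ran from 14262836 to 21620466 per library, and the smallest count of any of the 10 genes in a library was 196. Model 2 stood apart: the chi-square per degree of freedom in its pairs with other libraries was 11.4 to 15.9, against 2.58 to 10.1 in all other pairs. Reads of 4 Y-linked genes were present in all 8 libraries, with 4330 to 6779 summed counts each, which goes against the stated female sex. All 13 markers written down for the hypothalamus were detected in all 8 libraries, beside 6 of 7 markers of cortex and hippocampus. Levels below are CPM, gene counts as a share of the scaled library total in the usual CPM unit, and differences are log2 fold changes of IsoL minus Model with their standard error (SE). A gene passed at a Benjamini-Hochberg adjusted p under 0.05 in edgeR's quasi-likelihood test over all 14536 tested genes.

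All 10 genes had a lower fitted level in IsoL than in Model, by small amounts. Their median log2 difference was -0.18, against -0.00146 over all tested genes, of which 50.5% were below Model. The largest differences were those of Xbp1, Manf, Hspa5 and Atf4, at 80.7%, 81.7%, 83.5% and 84.4% of the Model level. The smallest was that of Hsp90b1, at 99.7%. None of the 10 passed in edgeR, where 0.158% of all tested genes passed as lower and 0.275% passed in either direction. At an unadjusted edgeR p under 0.05, 7 of the 10 were lower, against 6.78% of all tested genes, and none was higher, against 6.44%. In 5 of the 10 (Hspa5, Pdia6, Xbp1, Atf4 and Manf) every IsoL library lay below every Model library, against 4.42% of all tested genes, and the reverse held for none, against 4.05%. DESeq2's Wald test called 4 of the 10 lower (Hspa5, Xbp1, Atf4 and Manf), against 1.03% of all genes, or 2.14% in either direction. With limma voom and library quality weights 3 were called lower (Hspa5, Pdia6 and Xbp1), against 0.874%, or 1.64% in either direction. The 10 genes were chosen with earlier results of these data known, so their distance from the shares of all genes is no independent support. In bulk tissue, fewer cells of a type and less RNA per cell cannot be told apart.

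**Figure D2:**
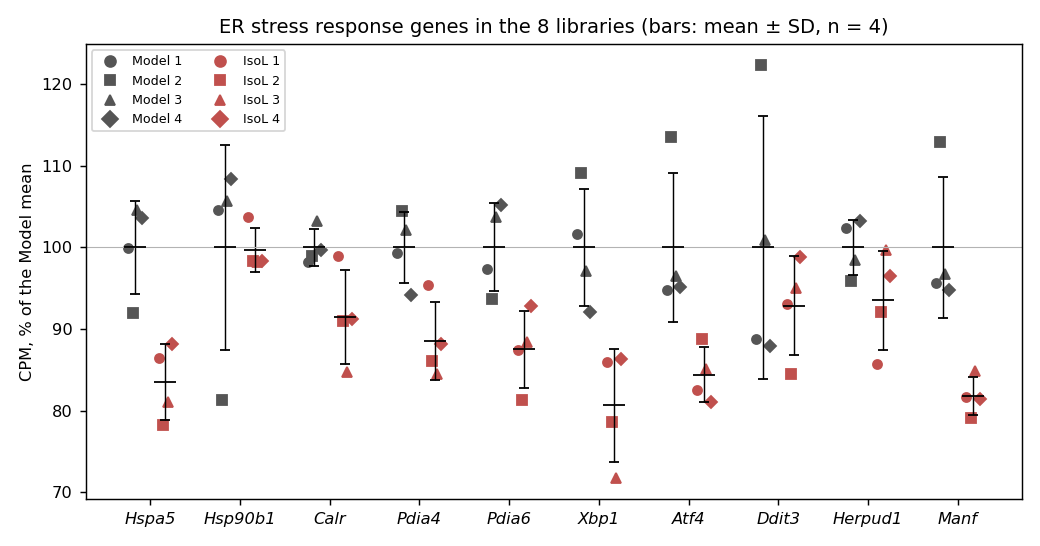
Level of each gene in each library as a percentage of that gene's Model mean CPM, with grey symbols for Model, red symbols for IsoL and bars for mean ± SD (n = 4). IsoL means lay at or below 100% for all 10 genes, and Model 2 (grey squares) was the lowest Model library for Hspa5, Hsp90b1, Pdia6 and Herpud1 and the highest for Pdia4, Xbp1, Atf4, Ddit3 and Manf.

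Among the lumenal chaperones, Hspa5 lay lower in IsoL without passing in edgeR, and Hsp90b1 had the smallest difference of the described genes. Hspa5 (ENSMUSG00000026864; chromosome 2, 34661982 to 34667559, as all positions of genes here from the deposited table, for which no build was found in the labels or headers) encodes BiP, the HSP70 of the ER that also holds the stress sensors inactive. It was at 445, 409, 465 and 461 CPM in Model 1 to 4 and at 385, 348, 361 and 393 CPM in IsoL 1 to 4. No IsoL library reached the lowest Model library, Model 2. The log2 difference was -0.26 (SE 0.05, 95% interval -0.38 to -0.14). Hspa5 ranked 64 of 14536 genes by p and did not pass (edgeR adjusted p = 0.0687). It did pass by DESeq2 (adjusted p = 0.00216), in limma voom (adjusted p = 0.00442) and in edgeR without Model 2 (adjusted p = 0.00634). In edgeR without any other single library it did not pass (adjusted p = 0.113 to 0.212).

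Hsp90b1 (ENSMUSG00000020048; chromosome 10, 86526073 to 86541373) encodes GRP94, the HSP90 of the ER. Its level was 258, 201, 261 and 267 CPM in Model 1 to 4 and 256, 243, 242 and 243 CPM in IsoL 1 to 4. Model 2 was the lowest of all 8, and the other Model libraries lay above the IsoL libraries. The log2 difference was -0.00445 (SE 0.08, 95% interval -0.17 to 0.16, edgeR adjusted p = 0.987). Without Model 2 it was -0.09, and its sign turned without Model 1, 3 or 4 and without IsoL 2, 3 or 4, to at most 0.04. Calr (ENSMUSG00000003814; chromosome 8, 85568479 to 85573563) encodes calreticulin, a calcium-binding chaperone of glycoproteins. It averaged 449 ± 10.0 CPM in Model and 411 ± 26.0 CPM in IsoL (SD, n = 4), with IsoL 1 inside the Model range. The log2 difference of -0.13 (SE 0.05) did not pass (edgeR adjusted p = 0.288).

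The disulfide isomerases and Manf had lower estimates in IsoL as well, none of which passed in edgeR. Pdia6 (ENSMUSG00000020571; chromosome 12, 17316546 to 17334771), an isomerase that also binds BiP, was at 106, 102, 113 and 115 CPM in Model and at 95.6, 88.9, 96.6 and 101 CPM in IsoL. The groups did not overlap, with IsoL 4 close to Model 2. The log2 difference of -0.19 (SE 0.06, 95% interval -0.31 to -0.07) did not pass in edgeR (adjusted p = 0.155) and passed in limma voom (adjusted p = 0.0276). The Pdia6 span overlaps Atp6v1c2 on the opposite strand by 50 bases, which makes its value uncertain, although Atp6v1c2 had only 89 counts in Model and 99 in IsoL in all. Pdia4 (ENSMUSG00000025823; chromosome 6, 47773075 to 47790364), known as ERp72, was at 40.9 to 45.3 CPM in Model and 36.7 to 41.4 CPM in IsoL. Those ranges overlapped through IsoL 1, and the log2 difference of -0.18 (SE 0.06) did not pass (edgeR adjusted p = 0.249).

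Manf (ENSMUSG00000032575; chromosome 9, 106715511 to 106769178) encodes an ER-resident protein released under stress that protects neurons. Its level was 35.2, 41.5, 35.5 and 34.8 CPM in Model and 30.02, 29.1, 31.2 and 29.9 CPM in IsoL. The IsoL libraries lay close together and below all Model libraries, among which Model 2 was the highest. The log2 difference was -0.29 (SE 0.07, 95% interval -0.44 to -0.14), which did not pass in edgeR (adjusted p = 0.107) or limma voom (adjusted p = 0.0546) but did in DESeq2 (adjusted p = 0.0291). Manf's deposited span overlaps Dcaf1 on the opposite strand by 42681 bases and contains all 6511 bases of Rbm15b on its own strand. Counting is not stated to use strand, and strand would not separate Manf from Rbm15b, so the value of Manf is uncertain. These are overlaps of spans, and the deposited gene length of Manf is 3524 bases. Dcaf1 had a log2 difference of -0.11 (SE 0.06, edgeR adjusted p = 0.492) and Rbm15b of -0.12 (SE 0.06, edgeR adjusted p = 0.382).

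Of the transcription factors, Xbp1 and Atf4 lay lower in IsoL without passing in edgeR, while Ddit3 overlapped between the groups. Xbp1 (ENSMUSG00000020484; chromosome 11, 5470659 to 5475893), the target of IRE1, was at 95.9, 103, 91.7 and 86.9 CPM in Model and at 81.1, 74.2, 67.7 and 81.5 CPM in IsoL. Every IsoL library was below the lowest Model library. This was the largest log2 difference of the 10, -0.31 (SE 0.07, 95% interval -0.46 to -0.16). In edgeR it did not pass (adjusted p = 0.0838). DESeq2 gave an adjusted p of 0.00881 and limma voom one of 0.0451, both past the threshold.

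Atf4 (ENSMUSG00000042406; chromosome 15, 80139385 to 80141742), the effector of PERK and of other kinases that sense stress, was at 100.3, 120.3, 102 and 101 CPM in Model. In IsoL it was at 87.4, 94.0, 90.2 and 85.9 CPM. The groups did not overlap, and Model 2 was again the highest library. The log2 difference of -0.25 (SE 0.06, 95% interval -0.38 to -0.11) did not pass in edgeR (adjusted p = 0.116), passed in DESeq2 (adjusted p = 0.0313) and missed in limma voom (adjusted p = 0.0532).

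Ddit3 (ENSMUSG00000025408; chromosome 10, 127126643 to 127132157), the stress-induced factor CHOP, was the least abundant of the 10, at 13.7, 18.9, 15.6 and 13.6 CPM in Model and 14.4, 13.0, 14.7 and 15.3 CPM in IsoL. IsoL 2 was the lowest of the 8 libraries, the other IsoL libraries lay within the range of Model 1, 3 and 4, and Model 2 was above all of them. Its log2 difference was -0.11 (SE 0.11, 95% interval -0.35 to 0.13, edgeR adjusted p = 0.721), and 0.00676 without Model 2. The value is uncertain, since the span overlaps Mars1 on the opposite strand by 68 bases and the span of the second Ddit3 entry by 2925 bases. The deposited gene length of that entry is only 105 bases. Herpud1 (ENSMUSG00000031770; chromosome 8, 95113066 to 95122005), a membrane protein that brings misfolded proteins to the degradation complex, averaged 53.1 ± 1.80 CPM in Model and 49.7 ± 3.22 CPM in IsoL (SD, n = 4). IsoL 1 was the lowest library at 45.5 CPM and IsoL 3 and IsoL 4 lay inside the Model range. The log2 difference of -0.10 (SE 0.06) did not pass (edgeR adjusted p = 0.523).

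**Figure D3:**
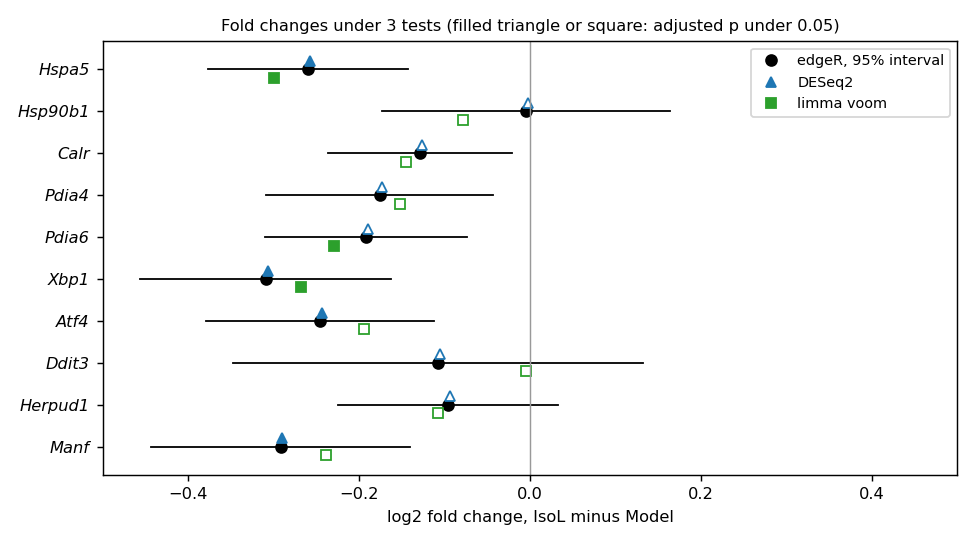
Log2 fold changes of IsoL minus Model for the 10 genes, with edgeR's estimate and 95% interval in black, DESeq2 as triangles and limma voom as squares, filled where the adjusted p was under 0.05. All edgeR estimates lie below 0, from -0.31 for Xbp1 to -0.00445 for Hsp90b1.

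Per gene length the order of the 10 genes was the same in both groups. In the FPKM values the authors deposited (counts scaled by gene length and library total), Calr was at 156 ± 4.88 in Model (SD, n = 4), Hspa5 at 105 ± 6.06, Hsp90b1 at 61.0 ± 7.45 and Atf4 at 44.9 ± 4.37. Pdia6 at 29.1 ± 1.65 and Xbp1 at 29.0 ± 2.16 did not differ beyond their spread. Herpud1 at 22.7 ± 0.604 and Pdia4 at 18.1 ± 0.916 followed. Manf at 10.4 ± 0.964 and Ddit3 at 9.01 ± 1.52 closed the order, with overlapping mean ± SD ranges. In IsoL the FPKM of Manf was 8.54 ± 0.285 and that of Ddit3 8.38 ± 0.604 (SD, n = 4). In IsoL the mean ± SD range of Xbp1 (23.5 ± 2.03) overlapped those of its neighbours Pdia6 (25.6 ± 1.55) and Herpud1 (21.3 ± 1.504).

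Ratios of raw counts within a library need no scaling between libraries, and 3 such ratios were compared, chosen after the values of the genes were seen. The ratio of Hspa5 to Hsp90b1, the ER members of the HSP70 and HSP90 families, was 1.724, 2.039, 1.785 and 1.724 in Model and 1.504, 1.434, 1.49 and 1.617 in IsoL. It did not overlap between the groups, with a log2 difference of -0.26 (two-sided exact permutation test, p = 0.0286, the smallest that 70 splits allow, and 0.0858 adjusted over the 3 ratios). Without Model 2 the log2 difference was -0.21 (exact permutation p = 0.0571, the smallest then possible). The ratio of Xbp1 to Herpud1 was 1.78 ± 0.179 in Model and 1.54 ± 0.209 in IsoL (SD, n = 4, exact permutation p = 0.2). That of Atf4 to Ddit3 was 6.92 ± 0.534 and 6.27 ± 0.669 (SD, n = 4, exact permutation p = 0.143). Both of the latter overlapped between the groups, and both had an adjusted p of 0.2. Since the pairs were picked with these values known, and the adjustment covers only the 3 pairs, no p-value here is independent support.

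Among themselves the genes did not vary as a single block. Model 2 was the highest library for 5 of the 10 genes (Pdia4, Xbp1, Atf4, Ddit3 and Manf) and the lowest for Hsp90b1, which was 0.29 below its mean over the 8 libraries on the log2 scale there. In that library Xbp1, Atf4, Ddit3 and Manf were 0.28 to 0.35 above their means, while Hspa5, Pdia6 and Herpud1 lay within 0.0107 of theirs. In IsoL 2 all 10 genes were below their mean, and it was the lowest library for 4 of them. IsoL 3 was the lowest for Calr, Pdia4 and Xbp1. In Model 3 all 10 were above their mean. The median of the 10 deviations was between 0.0648 and 0.105 for each library of Model and between -0.154 and -0.0509 for each of IsoL. Model 2 also had the highest share of counts from mitochondrially encoded genes, 5.64% against 4.69 to 5.11% in the other libraries, and the part of this in the result was not tested.

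**Figure D4:**
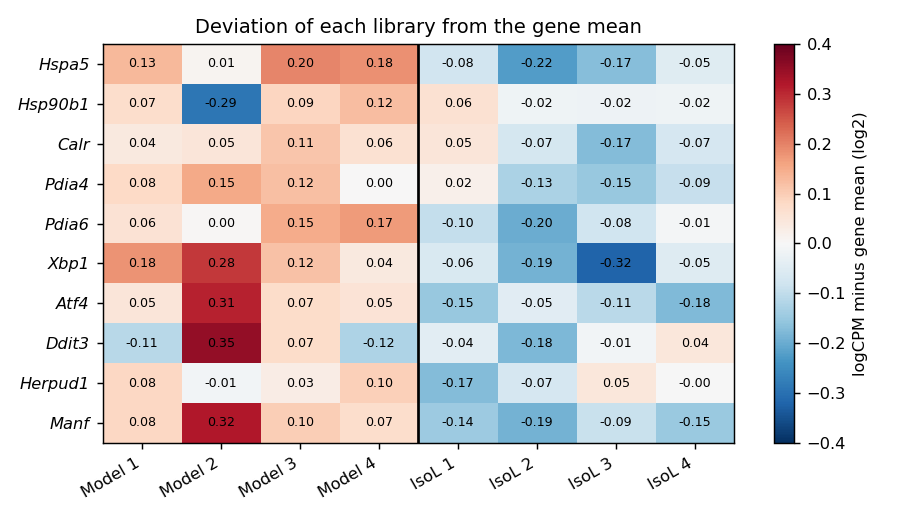
Deviation of each library from the gene's mean logCPM over the 8 libraries (log2, red above and blue below the mean), with genes in rows and libraries in columns. Model 2 is at 0.28 to 0.35 for Xbp1, Atf4, Ddit3 and Manf and at -0.29 for Hsp90b1.

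Other genes of the pathway showed little difference between the groups. Of 83 symbols written down in 5 lists, 80 were in the table and 79 were tested: 1 fell, none rose and 78 did not pass in edgeR, against 0.158% of all genes called lower. The median log2 difference over the 79 was -0.0386. Of them, 52 (65.8%) lay below Model, against 50.5% of all tested genes, the share to set beside each list below. At an unadjusted edgeR p under 0.05, 7 were lower and 1 (Ern1) higher, against 6.78% and 6.44% of all genes. DESeq2 and limma voom each called 1 of them lower and none higher.

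Sensors and activating proteases (9 of 9 tested) had 5 genes below Model and 4 above, with none passed in edgeR, DESeq2 or limma voom. The sensor genes of the kinase arms lay on opposite sides of Model. Ern1, encoding IRE1, averaged 20.1 ± 1.75 CPM in Model and 23.7 ± 2.16 CPM in IsoL (SD, n = 4, log2 0.24, SE 0.09, edgeR adjusted p = 0.283). Eif2ak3, encoding PERK, was at 35.1 ± 2.44 and 31.3 ± 1.85 CPM (log2 -0.16, SE 0.07, edgeR adjusted p = 0.344). The libraries of the groups overlapped for each. The list of other ER chaperones and folding enzymes had 15 of 20 tested genes below Model, a median log2 difference of -0.07 and none passed in the 3 tests. Its leading genes were Ero1a, the oxidase that recharges disulfide isomerases, whose libraries ranged over 90.8 to 97.5 CPM (Model) and 81.3 to 86.2 CPM (IsoL; log2 -0.16, SE 0.05, edgeR adjusted p = 0.156), and Sdf2l1, a co-factor of BiP. Sdf2l1 was at 6.92, 11.2, 9.18 and 8.69 CPM in Model and 6.94, 6.20, 6.14 and 6.60 CPM in IsoL (log2 -0.48, SE 0.14, edgeR adjusted p = 0.176).

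Genes of ER-associated degradation (15 tested) had a median log2 difference of -0.0341, with 11 below Model and none passed in the 3 tests. The ubiquitin ligase gene Syvn1 had a log2 difference of 0.12 (SE 0.07, edgeR adjusted p = 0.501) and Derl1, of the retrotranslocation channel, of -0.09 (SE 0.06, edgeR adjusted p = 0.543). Targets of the PERK and ATF4 arm (20 of 21 tested, Trib3 being too low) had 9 genes below Model and a median of 0.00654, and Ddit4 alone fell. Ddit4, which encodes an inhibitor of mTOR signalling and responds to several other stresses and to glucocorticoids, was at 35.3, 42.9, 44.6 and 42.4 CPM in Model. In IsoL it was at 28.0, 32.1, 30.3 and 28.6 CPM. Its groups did not overlap (log2 -0.47, SE 0.08, edgeR adjusted p = 0.0381), and the call was lost without Model 3 or 4 or any IsoL library, with adjusted p of 0.0676 to 0.151. Genes of ER translocation (15 tested) had 12 below Model, a median of -0.08 and none passed in the 3 tests. The signal peptidase genes Spcs2 (log2 -0.20, SE 0.07, edgeR adjusted p = 0.23) and Spcs3 (log2 -0.12, SE 0.05, edgeR adjusted p = 0.358) led it.

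**Figure D5:**
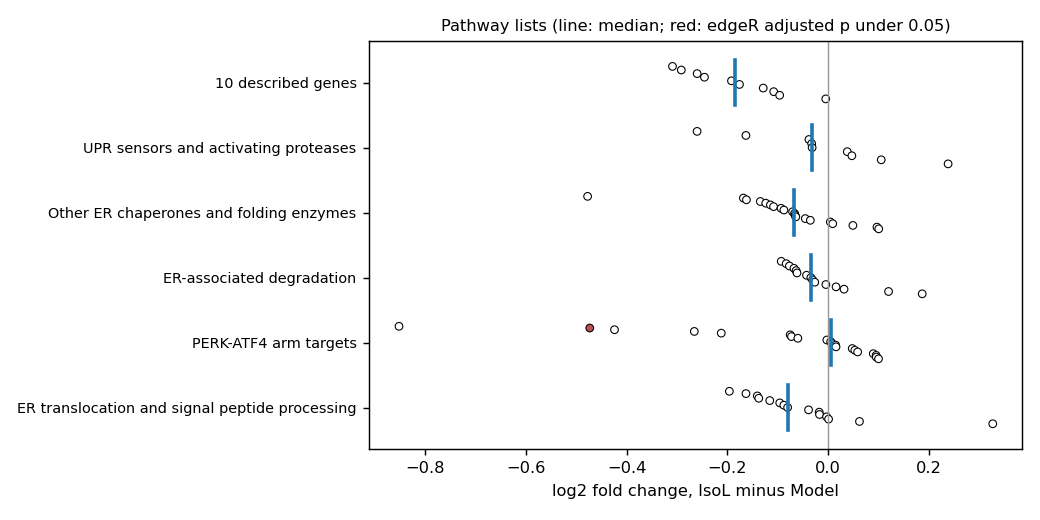
Log2 fold changes of IsoL minus Model for the 10 described genes and the tested genes of 5 pathway lists, 1 point per gene, with the list median as a blue line and genes with an edgeR adjusted p under 0.05 in red. Medians run from -0.18 for the 10 genes to 0.00654 for PERK-ATF4 targets, and Ddit4 is the only red point.

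The deposited KEGG annotation for protein processing in the ER covers 170 genes, including 9 of the 10 described (all but Manf). Of its 152 tested genes outside the 10, 97 were below Model, against 50.5% of all tested genes. At an unadjusted edgeR p under 0.05, 17 were lower and 5 higher, against 6.78% and 6.44%. Every IsoL library lay below every Model library in 11 and above in 1, against 4.42% and 4.05%. DESeq2 called 6 lower and 1 higher, against 1.03% of all genes called lower. In limma voom 5 were called lower and none higher, against 0.874% called lower. In edgeR 2 fell, against 0.158%, and none rose, against 0.117%. These were the cytosolic heat shock genes Dnajb1 (log2 -0.53, SE 0.06, edgeR adjusted p = 0.00359) and Hspa1a (log2 -2.93, SE 0.45, edgeR adjusted p = 0.0344), which were named after their values were seen. Neither is an ER chaperone, and Hspa1a shares reads with a near-identical copy, so that its value is uncertain. Hspa1a averaged only 2.76 CPM in Model and 0.357 CPM in IsoL. Its copy Hspa1b averaged 7.85 and 3.90 CPM (log2 -1.01, SE 0.21, edgeR adjusted p = 0.074, DESeq2 adjusted p = 0.0024). Hsph1, also cytosolic and named after its values were seen, had a log2 difference of -0.23 (SE 0.04, edgeR adjusted p = 0.053, DESeq2 adjusted p = 0.000162).

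The genes whose profile over the 8 libraries was closest to that of Hspa5 were Slc16a1, Lin28b, Rgs3, Lzts2 and Zfp68. Closeness was the Euclidean distance of logCPM centred per gene, 0.123 to 0.153 for these 5 against a median of 0.55 over all tested genes. Slc16a1 encodes a lactate transporter; its Model mean was 97.6 ± 5.97 CPM and its IsoL mean 84.1 ± 5.18 CPM (SD, n = 4). All 5 had IsoL libraries below the Model libraries, which follows from their being chosen for likeness to Hspa5.

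Summed levels of some region and cell type markers also differed between the groups. Summed over 13 hypothalamic markers, the level was 229 to 269 CPM in Model and 91.8 to 187 in IsoL, with 11 of 12 tested markers below Model, of which Pmch passed (log2 -0.89, edgeR adjusted p = 0.0471). For the magnocellular hormone genes Avp and Oxt, which are also among those 13, the sum was 24.7 to 97.0 CPM in Model and 8.72 to 55.8 in IsoL. These ranges overlapped, and neither gene passed (edgeR adjusted p = 0.589 for Avp and 0.672 for Oxt). Summed over 5 astrocyte markers it was 1342 to 1416 CPM in Model and 1441 to 1592 in IsoL, with all 5 above Model. The 5 oligodendrocyte markers summed to 13114 to 13539 and 13342 to 14762 CPM, and the 5 neuronal markers to 4257 to 4825 and 4260 to 4567 CPM. Choroid plexus markers (5 of 5 detected) summed to 700.4 and 605 CPM in IsoL 1 and 2 and to 70.9 in IsoL 3, against 17.7 to 25.4 in the other libraries. The 7 markers of cortex and hippocampus summed to 299.6 and 288 CPM in the same IsoL 1 and 2, against 149 to 199 in the other 6 libraries. Among secretory cells from outside the brain, the pituitary hormone genes Gh and Prl had 0 counts in all libraries, and 3 plasma cell markers summed to 3.19 to 5.23 CPM. The part of these markers in the differences of the 10 genes was not tested.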

How the data were processed

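Polyadenylated RNA was measured in 8 libraries, with 15 PCR cycles and no strand marking stated per the labels' protocols. The submitters' processing notes name fastp 0.22.0, HISAT2 2.1.0 and HTSeq 0.9.1; the genome build, the annotation and the counting mode were not found there, in the labels or in the headers. The table deposited by the authors holds, per the file headers, a read count for each gene in each library, with FPKM values deposited beside them, which matched counts over the table's gene length and library total (largest relative difference 1.11e-09 above 200 counts). The deposited gene length is the other unit.

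Groups came from the sample titles. Genes were filtered with filterByExpr (14536 kept), scaled by TMM and tested with edgeR 4.0.16 in R 4.3.3 (robust quasi-likelihood F-test, Benjamini-Hochberg at 0.05) on all 8 libraries. The SE is the absolute log2 difference over the square root of F. CPM uses TMM-scaled libraries; 3 counts correspond to 0.139 to 0.21 CPM, counting error only. logCPM used a prior count of 2. Replicates were not duplicates (smallest chi-square per degree of freedom 2.58, genes with at least 20 counts a pair). The test was checked on simulated counts.

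The 10 genes and the lists were chosen with earlier results of these data known. Named were the 10 genes, from each list up to 3 that passed, or where none did the 2 of lowest p, the 5 genes nearest Hspa5, and tested genes overlapping a member. Alternatives were DESeq2 size factors, no filter, a replicate block, each library left out, DESeq2 1.42.0 and limma voom 3.58.1. Ratios were tested by exact permutation (scipy 1.17.1). Promoters and motifs were read from the RefSeq table of GRCm38.p6, whose coordinates were not joined with the deposited ones.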

Additional observations from a re-analysis of the deposited data

Results flagged for a closer look

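Within a group of 4 libraries, 1 library lay far from the other 3 by Dixon's ratio in 6 of the 56 groups of named genes tested, where chance gives about 1 in 20. Of these, 4 were in Model 2. Hsp90b1 was at 201 CPM there, against 258 to 267 in the other Model libraries. Atf4 was at 120.3 CPM in Model 2, against 100.3 to 102 in the others. Manf was at 41.5 CPM, against 34.8 to 35.5. Spcs2 was at 135 CPM, against 110.2 to 113. In IsoL 1, Hsp90b1 was at 256 CPM, against 242 to 243 in the other IsoL libraries. In IsoL 3, Eif2ak3 was at 28.5 CPM, against 31.9 to 32.5.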

How the results depend on the processing

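The count of the 10 genes called was 0 in the main test, 1 (Hspa5) with no filter on low counts, 4 in DESeq2, 3 in limma voom and 0 to 1 with a library left out, the 1 being Hspa5 without Model 2. The cause was not tested. All 10 were below Model in 5 of the 13 alternatives, and 9 of 10 in the other 8, the exception being Hsp90b1 or, without Model 2, Ddit3. Over all genes, 40 were called, against 74 with no filter, 311 in DESeq2, 238 in limma voom and 6 to 146 with a library left out. Other pathway genes called numbered 1, and 0 to 1 with a library left out. With the replicate number as a block, 17 genes and 0 of the 10 were called, and Hsp90b1 turned to 0.00357. Whether libraries of the same number belong together cannot be decided from their expression. Correlations of same-numbered libraries were 0.0199 to 0.0696, and 2 of 8 libraries correlated best with their own number. With a library left out, the log2 difference of Hsp90b1 ran from -0.0912 to 0.0392, of Ddit3 from -0.16 to 0.00676, of Atp6v1c2 (beside Pdia6) from -0.27 to 0.0207 and of Mars1 (beside Ddit3) from -0.0231 to 0.0905, the last also -0.0215 in limma voom. Of 364 values for the 28 named genes over 13 settings, 327 kept direction and side of the threshold, 19 newly passed, 6 (Ddit4) no longer passed and 12 turned sign. The 24 ratios with a library left out kept their direction. With 4 libraries a group, SEs of 0.05 to 0.11 limit what can be called among differences of this size.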

Other observations

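Genes with an ERSE or ERSE-II in the promoter were followed beyond the 10, a list set by sequence and chosen after the values of the 10 were seen. Of 44 such genes outside the 10, 34 were in the table and 24 were tested. None passed in edgeR, DESeq2 or limma voom, and the median log2 difference was 0.00414. At an unadjusted edgeR p under 0.05, 1 was lower and none higher, against 6.78% and 6.44% of all tested genes. In all, 11 (45.8%) were below Model and 13 above, against 50.5% of all tested genes below. No IsoL library set lay wholly below or above Model for any of the 24, against 4.42% of all tested genes wholly below and 4.05% wholly above. Dnajb11, an ER co-chaperone of BiP, averaged 60.1 ± 3.71 CPM (Model) and 53.5 ± 4.14 CPM (IsoL; SD, n = 4, log2 -0.17, SE 0.07, edgeR adjusted p = 0.296). Canx, the membrane-bound relative of calreticulin, was at 689 ± 14.4 and 658 ± 28.2 CPM (SD, n = 4, log2 -0.07, SE 0.04, edgeR adjusted p = 0.562). Both were named outside the rule used for the lists and lay below Model, whereas 13 of the 24 lay above it. Pan2, for example, had a log2 difference of 0.15 (SE 0.08, edgeR adjusted p = 0.46).

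Erp29, a lumenal relative of the disulfide isomerases outside all 5 lists and named after its values were seen, had a mean of 71.5 CPM in Model and 58.6 CPM in IsoL, with no overlap between the groups. Its log2 difference of -0.29 (SE 0.07) missed the threshold in edgeR (adjusted p = 0.0939) but not in DESeq2 (adjusted p = 0.0162) or limma voom (adjusted p = 0.0382).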
